A study of Mus musculus with 12 samples.

Results

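The ion exchangers and cation-chloride cotransporters of the mouse cochlea were examined along the cochlear spiral. The members were the genes whose array gene name was Slc4a, Slc9a, Slc12a or Slc26a followed by a number, apart from Slc12a2, Slc26a4 and Slc26a5, and 34 of the 19505 genes on the array met this rule. They comprised 9 Slc4a, 10 Slc9a, 8 Slc12a and 7 Slc26a genes and were read by 606 of 165865 exon probes, with 2 to 28 probes per gene (median 18). A probe was taken as detected in a turn when the scanner software called it well above background on each of the 4 arrays. Every member had at least 1 probe detected in some turn, as had 467 of the 606 probes.

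The 12 arrays came from male C57BL/6 mice aged 6 weeks and fell into 3 groups of 4, the apical, middle and basal turns. Neither a treatment nor an engineered allele was given in the labels. Each turn was a bulk sample of sensory epithelium, ganglion neurons and lateral wall together (the wall includes the stria vascularis and the ligament behind it), so the values refer to the mixture and to no single cell type. The labels describe 4 mice and number the samples of each turn 1 to 4 without stating that a number marks one animal. The study describes the 4 results of a turn as coming from independent mice. With 4 mice in all, the turns would then come from the same animals. The samples were fitted as unpaired because the labels do not match them across turns. The p-values measure the spread between these samples, in which animal and technical differences are not separated.

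Exchangers of the Slc4 family carry bicarbonate across membranes, often against chloride or together with sodium, and those of the Slc9 family exchange sodium for protons at the plasma membrane or in organelles. Slc12 cotransporters move chloride together with potassium, sodium or both, and Slc26 proteins exchange chloride, bicarbonate, sulfate and related anions. In the cochlea such transporters set the pH and chloride of sensory, supporting and lateral wall cells and take part in returning potassium from the hair cells to the endolymph.

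Expression was read as the scaled signal, the spot brightness after each array was multiplied to a common 75th percentile, and a gene value was the mean of the log2 signals of its exon probes. The brightness of different probes depends on their sequence, so levels are compared between turns and not between genes. The following 60-base probes belong to members that differed most between apex and base in opposite directions within a family or that stand for their family. Each is printed 5′ to 3′ as the files give it, and no part is set in capitals.
Slc4a10: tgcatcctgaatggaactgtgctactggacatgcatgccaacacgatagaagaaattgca
Slc4a4: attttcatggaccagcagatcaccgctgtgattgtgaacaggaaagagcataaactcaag
Slc12a4: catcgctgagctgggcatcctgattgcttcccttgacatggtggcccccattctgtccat
Slc12a7: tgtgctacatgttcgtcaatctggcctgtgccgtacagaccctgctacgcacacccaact
Slc9a4: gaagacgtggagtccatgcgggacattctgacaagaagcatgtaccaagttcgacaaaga
Slc9a7: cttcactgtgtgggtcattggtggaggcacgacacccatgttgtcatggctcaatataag

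These exon probes lie on mouse build mm9 at chr2:62066724-62066783 on the plus strand for Slc4a10, chr5:89628782-89628841 on the plus strand for Slc4a4 and chr8:108473038-108473097 on the minus strand for Slc12a4. The probe of Slc12a7 lies at chr13:73936402-73936461 on the plus strand, that of Slc9a4 at chr1:40675922-40675981 on the plus strand and that of Slc9a7 at chrX:19735941-19736000 on the minus strand. Their own log2 differences between the apical and basal turns were -1.80, 1.32, -0.72, 0.71, 1.13 and 1.34 in the order printed. Each was chosen, among the detected probes between the first and last of its gene, as the one nearest the gene's own difference. Their closeness to the gene values was therefore set by the choice. The longest run of bases that any probe of Slc12a4 shared with any probe of Slc12a7 was 22, and for Slc4a10 and Slc4a4 it was 20. Cross-hybridisation between relatives was not tested.

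Between the apical and basal turns, 19 of the 34 members differed at an adjusted p under 0.05 in limma's moderated contrast, against 39.2% of all genes. Of these, 10 were higher in the apex (17.6% of all genes) and 9 in the base (21.6% of all genes). At 1.5-fold or more, 6 members were higher in the apex (7.04% of all genes) and 3 in the base (4.22% of all genes). The groups did not overlap for 21 members (38.3% of all genes). The median log2 difference of the members was -0.02, beside -0.04 over all genes.

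Of the 10 Slc9a genes, 6 were higher in the apex and 0 lower, with a median log2 difference of 0.26, although with spike-in scaling Slc9a2 and Slc9a5 were -0.18 and -0.28. Of the 8 Slc12a genes, 5 were lower in the apex and 1 higher, with a median of -0.19. The 9 Slc4a genes split into 3 higher, 3 lower and 3 that did not pass the test. Of the 7 Slc26a genes, Slc26a2 alone passed with the 75th percentile scaling, and it was lower in the apex. Slc26a11 was also called lower with quantile and median scaling, Slc26a6 with quantile normalization, and all 7 with spike-in scaling.

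**Figure D1:**
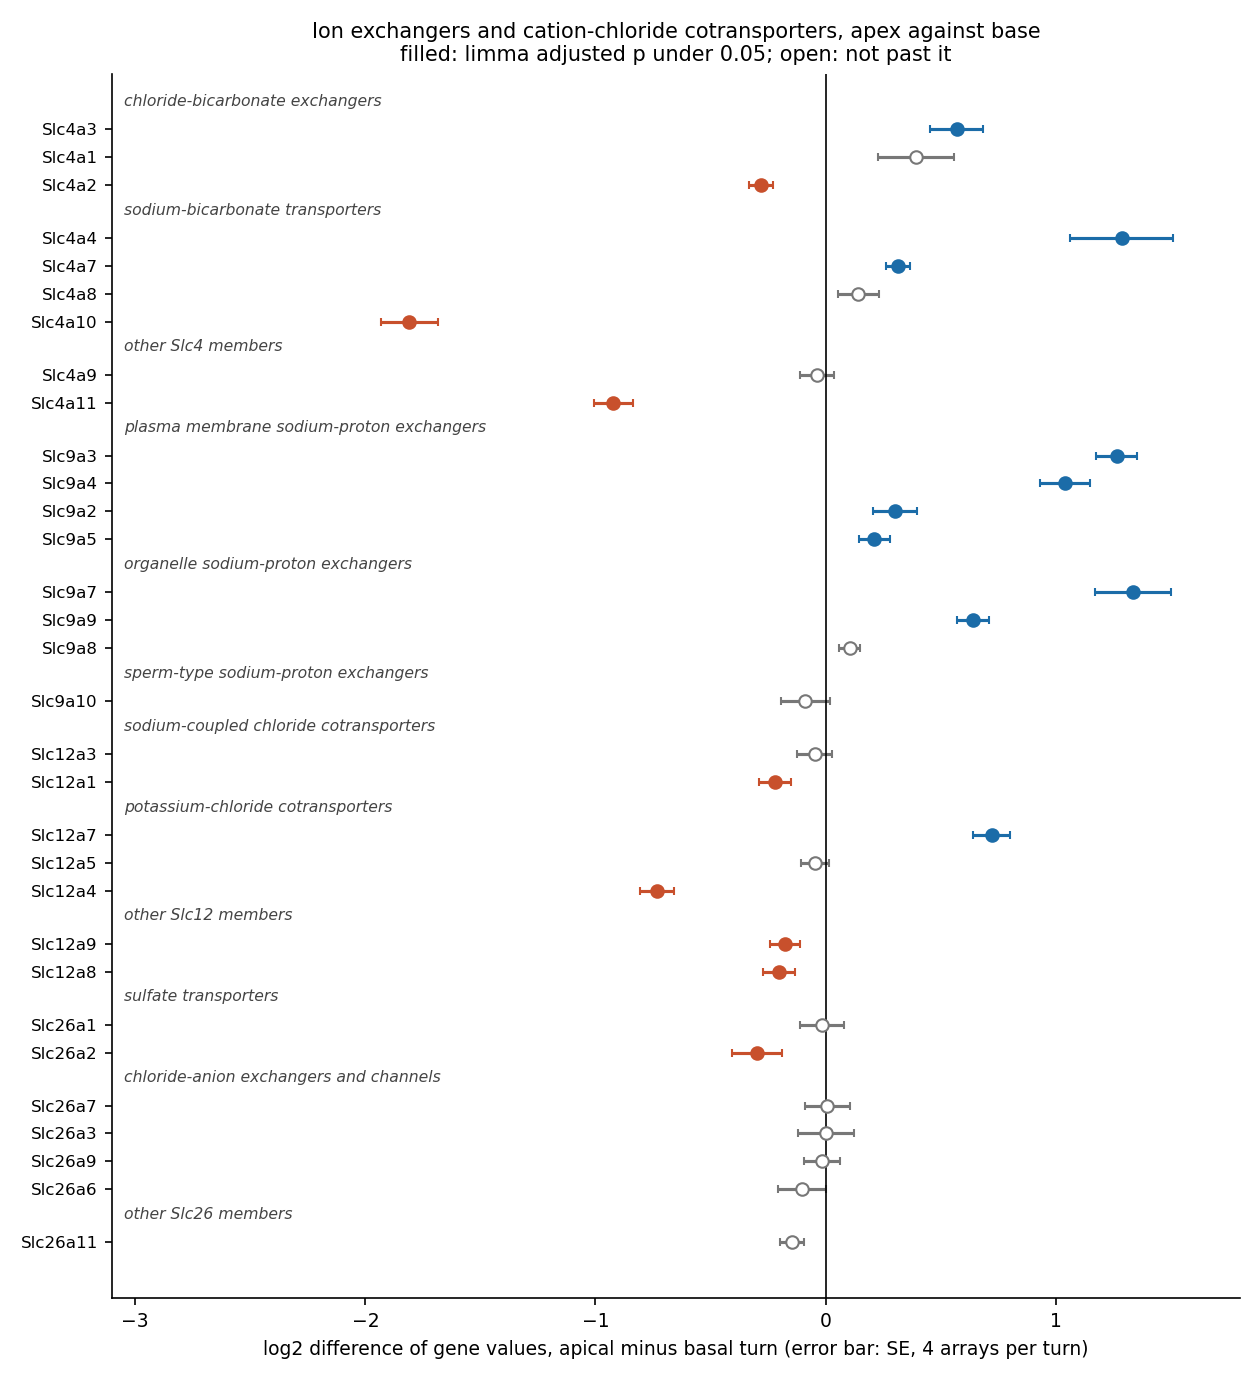
The horizontal axis gives the log2 difference between the apical and basal turns for 31 of the 34 members, grouped by role, with the SE of 4 arrays per turn as the error bar and filled points for adjusted p under 0.05. The points run from -1.81 for Slc4a10 to 1.34 for Slc9a7, and called points lie on both sides of 0 among the Slc4 and potassium-chloride members.

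These differences are relative to the brightness of each array as a whole. The members that did not pass here, apart from Slc4a1, were all called lower in the apex with spike-in scaling. With quantile normalization 8 members were higher and 14 lower in the apex, with scaling to the array median 8 and 12, and with scaling to the spike-in probes 5 and 24. Scaling to the spike-in probes moved the median of all genes to -0.52 and scaling to the median moved it to -0.15, and the member medians moved with them to -0.50 and -0.13. In these bulk samples, fewer cells of a type and less RNA per cell cannot be told apart. Each turn also lay on a slide of its own, so turn and slide cannot be told apart.

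**Figure D2:**
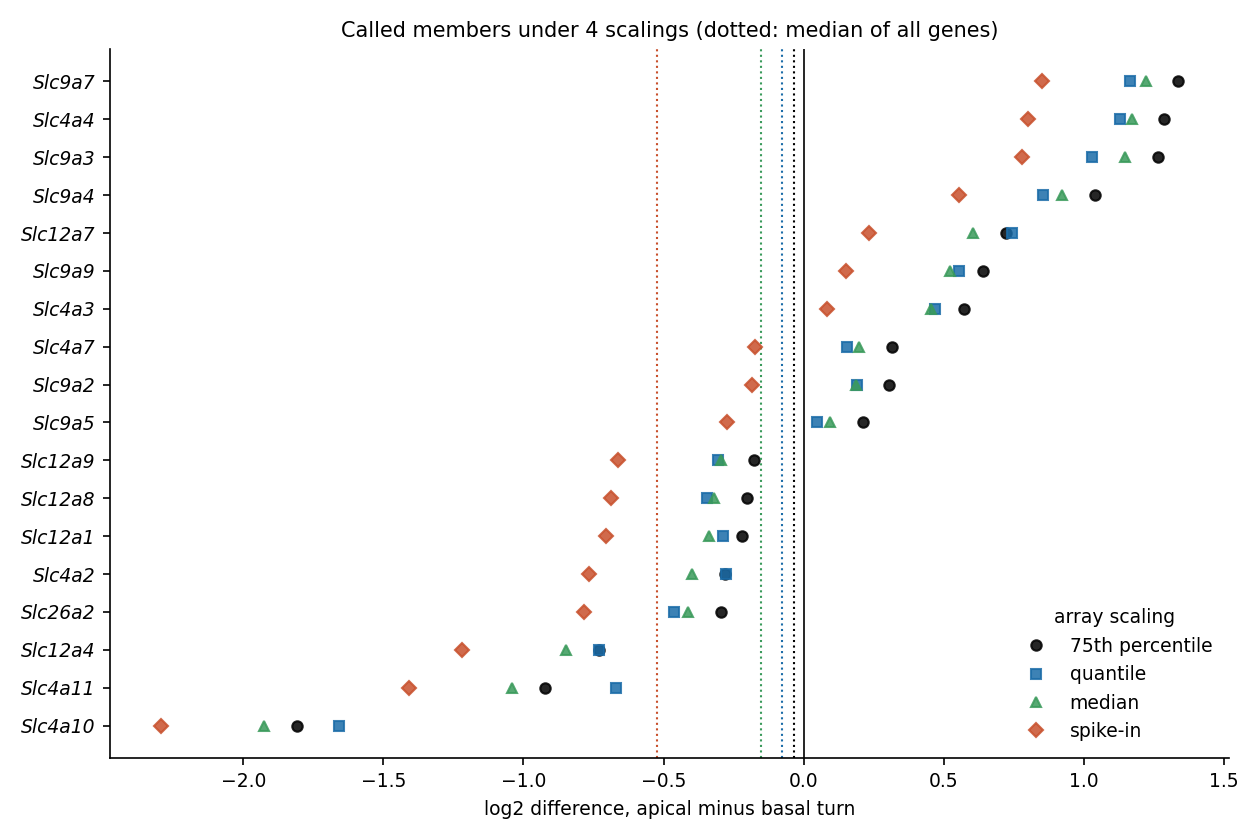
The horizontal axis gives the log2 difference between the apical and basal turns of 18 of the 19 called members under 4 array scalings, and the dotted lines mark the median of all genes under each. With spike-in scaling each point lies further to the left than with the 75th percentile, and Slc4a7, Slc9a2 and Slc9a5 move from above 0 to -0.17, -0.18 and -0.28.

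Marker genes of the tissue parts moved along the same axis. All markers on the array of hair cells (12), supporting cells (9), strial marginal cells (8), strial intermediate cells (8), spiral ligament fibrocytes (8), neurons (11) and Schwann and satellite glia (8) had a probe well above background. In the apex, 11 of the 12 hair cell, 8 of the 11 neuronal and 7 of the 8 glial markers were higher, while 6 marginal cell, 7 intermediate cell and 7 fibrocyte markers were lower. Of the supporting cell markers, 5 were higher and 3 lower. Beside these counts, 17.6% of all genes were higher and 21.6% lower in the apex. The summed signal of the neuronal list ran from 29738 to 38685 on the apical arrays, from 27604 to 48496 on the middle arrays and from 6402 to 26336 on the basal arrays. The summed fibrocyte list ran from 358791 to 397565, from 468609 to 527448 and from 653506 to 734083. The summed hair cell list ran from 24264 to 28001, from 20249 to 26336 and from 6927 to 15032. Basal replicate 3 held the highest basal sum of the neuronal, glial and hair cell lists, and middle replicate 1 the highest middle sum. Within the hair cell list, Pvalb was highest of its turn on these arrays, at 8471 and 14774. Most other hair cell markers were highest on another array of the turn. Ocm read 4188 in basal replicate 3 against 4763 in basal replicate 4. It read 9011 in middle replicate 1 against 10651 in middle replicate 3. The part of these lists in the results on the transporters was not tested.

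Among the chloride-bicarbonate exchangers, Slc4a2 (AE2), a widely expressed exchanger that unloads bicarbonate, was lower in the apex, with a log2 difference of -0.28 ± 0.05 (SE; n = 4 arrays per turn throughout; adjusted p = 0.00131). Its scaled signal was 562, 596, 602 and 593 on the apical arrays and 672, 728, 707 and 754 on the basal arrays, with no overlap. Slc4a3 (AE3), known from excitable tissues, was higher in the apex by 0.57 ± 0.11 (adjusted p = 0.00232). Its basal arrays read 187, 159, 225 and 184, all below the apical arrays at 286, 275, 309 and 247. The probes of Slc4a3 did not move alike, with differences from -0.04 to 1.28 and 12 of 21 probes higher in the apex at an adjusted p under 0.05. With spike-in scaling its difference was 0.083 and did not pass the test (adjusted p = 0.551).

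Slc4a1 (AE1, band 3), the anion exchanger of red cells, did not pass the test between apex and base (0.39 ± 0.17, adjusted p = 0.0844). Apical replicate 4 read 154, while the other apical arrays read 83.4, 98.4 and 84.1 and the basal arrays 79.1, 77.5, 80.6 and 72.0, without overlap. On that same array the summed signal of 8 erythroid markers was 60641, against 21617 to 37450 on the other apical arrays. Basal replicate 3 and middle replicate 3 had higher erythroid sums, 75836 and 71936, with Slc4a1 at 80.6 and 87.1. Apical replicate 4 also had the highest apical sums of the osteoblast (18701 against 3487 to 5880), leukocyte (37996 against 4089 to 18903) and osteoclast lists (1764 against 911 to 1088). The part of these lists in the value of Slc4a1 was not tested.

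Among the sodium-bicarbonate transporters, Slc4a10 and Slc4a4 differed in opposite directions. Slc4a10 encodes a sodium-driven bicarbonate transporter known from neurons and fluid-secreting epithelia. Its scaled signal was 1239, 1530, 1504 and 1534 on the apical arrays, 2306, 3219, 2485 and 2649 on the middle arrays and 5372, 5435, 4101 and 5497 on the basal arrays. The turns did not overlap, the basal arrays were highest, and the middle arrays lay between the ends. Between base and apex the signal was 3.5-fold lower (log2 -1.81 ± 0.12, adjusted p = 2.29e-06), with steps of -0.87 ± 0.12 from middle to apex (adjusted p = 0.00284) and -0.94 ± 0.12 from base to middle (adjusted p = 6.86e-04). All 24 of its probes, spread over chr2:61884690-62154738, were lower in the apex and passed the test, from -1.96 to -1.51, where 34.4% of all probes on the array passed. Without basal replicate 3, the lowest of the basal arrays, the difference was -1.91.

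Slc4a4 encodes NBCe1, the electrogenic sodium-bicarbonate cotransporter that moves bicarbonate across epithelia and glia. Its scaled signal was 195, 170.3, 216 and 171 on the apical arrays, 217, 155, 154 and 129 on the middle arrays and 86.2, 55.6, 117 and 61.8 on the basal arrays. The apical and basal arrays did not overlap, while middle replicate 1 read slightly above the highest apical array. The apical turn was 2.44-fold higher than the basal turn (log2 1.29 ± 0.22, adjusted p = 9.80e-04), and the middle turn was 2.1-fold higher than the basal turn (adjusted p = 0.00793). The apical and middle turns were not separated (0.22 ± 0.22, adjusted p = 0.534). All 25 probes over chr5:89363788-89668661 were higher in the apex, from 0.58 to 2.18, and 24 passed the test. With the mean signal and normexp background correction the difference was 0.76 (adjusted p = 5.07e-04), and without basal replicate 3 it was 1.49.

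Slc4a7 (NBCn1), whose loss impairs hearing and sight in mice, was higher in the apex by 0.31 ± 0.05 (adjusted p = 7.87e-04), except that with spike-in scaling it was -0.17 and did not pass. Its probes ran from -0.58 to 0.86, with 13 of 25 called higher and 2 called lower in the apex. Its apical arrays read 151, 139.5, 156 and 146 and its basal arrays 117, 114, 127 and 118, with no overlap. Slc4a8, a sodium-driven chloride-bicarbonate exchanger of neurons, did not pass the test (0.14 ± 0.09, adjusted p = 0.243), though its arrays did not overlap.

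Slc4a11, a membrane transporter related to the bicarbonate carriers, in which mutations cause corneal dystrophy with hearing loss, rose from apex to base. Its scaled signal was 16784, 19681, 18109 and 19676 on the apical arrays, 22273, 28174, 25528 and 27578 on the middle arrays and 34360, 37123, 32551 and 36670 on the basal arrays. No array of one turn reached the values of another. The basal turn was 1.9-fold higher than the apical turn (log2 -0.92 ± 0.08, adjusted p = 1.52e-05), in steps of -0.48 ± 0.08 (adjusted p = 0.00671) and -0.45 ± 0.08 (adjusted p = 0.00489) that put the middle turn 48.3% of the way from base to apex on the log2 scale. All 18 probes were lower in the apex, from -1.16 to -0.26. Slc4a9 (AE4), known from the kidney, showed no difference past the test (-0.04 ± 0.07, adjusted p = 0.761).

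**Figure D3:**
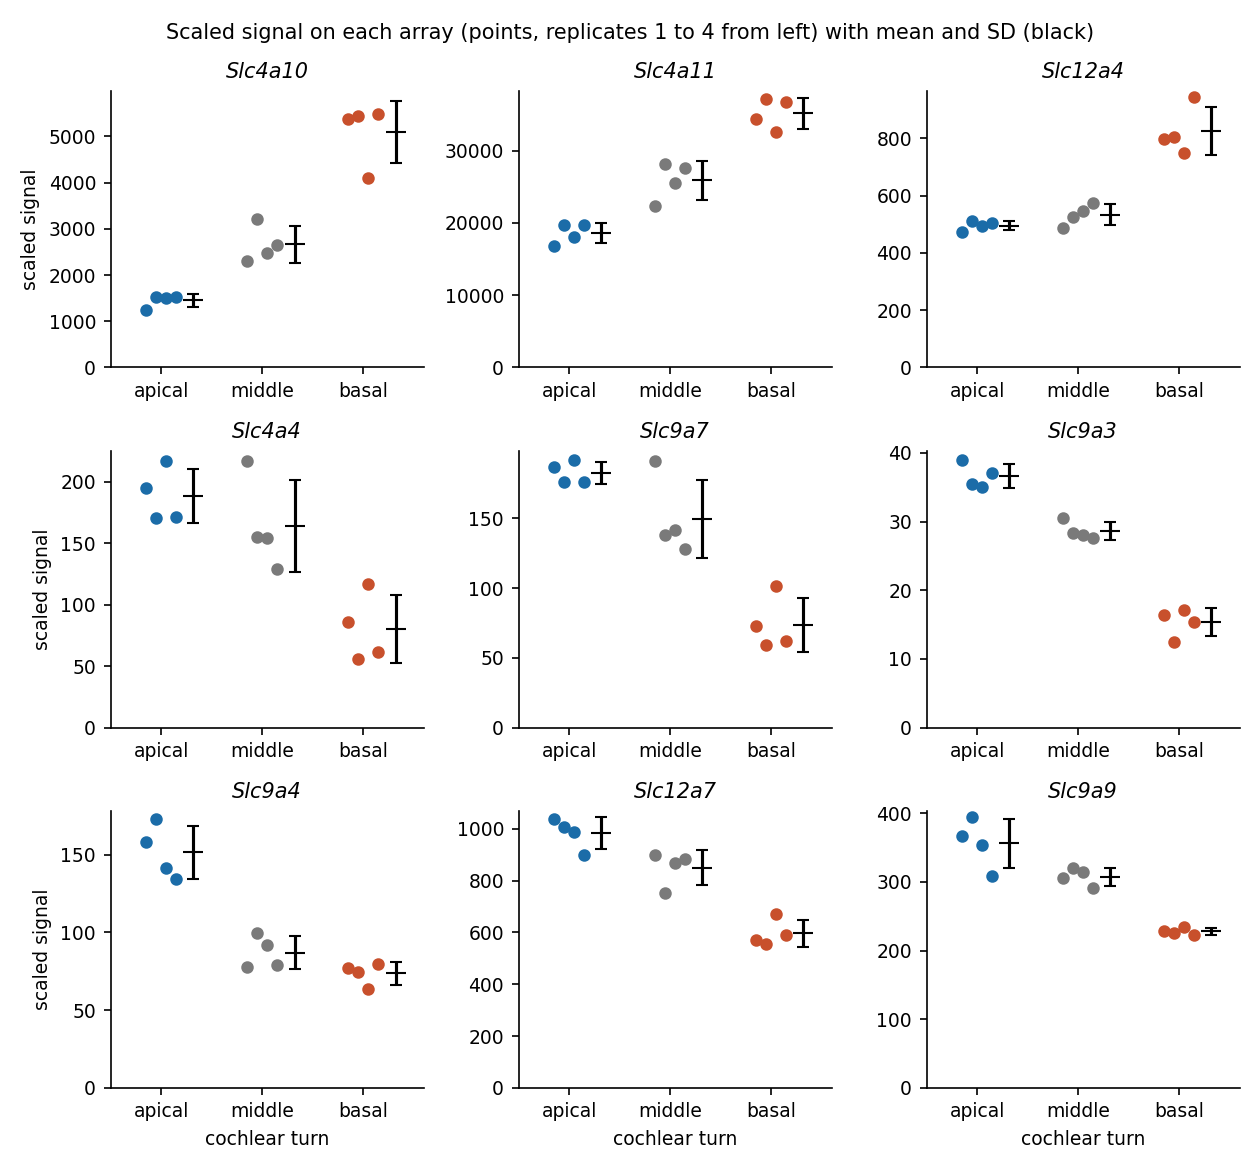
Each panel plots the scaled signal (vertical axis, from 0) of 1 member on the 4 arrays of each turn, with the mean and SD beside the points. Slc4a10, Slc4a11 and Slc12a4 are highest in the base, and the other 6 are lowest there, with basal replicate 3 the highest basal point for 5 of these (Slc4a4, Slc9a7, Slc9a3, Slc12a7 and Slc9a9).

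Of the 5 plasma membrane sodium-proton exchangers, 4 were higher in the apex, with the spike-in exceptions given above for Slc9a2 and Slc9a5. Slc9a4 (NHE4), best known from the basolateral membrane of stomach and kidney epithelia, read 158, 173, 141 and 135 on the apical arrays, 77.6, 99.7, 91.6 and 79.2 on the middle arrays and 77.2, 74.3, 63.3 and 79.9 on the basal arrays. The apical arrays stood above both other turns, and the middle and basal arrays overlapped. The apical turn was 2.06-fold higher than the basal (log2 1.04 ± 0.11, adjusted p = 3.82e-05) and 1.74-fold higher than the middle turn (adjusted p = 0.00205). The middle and basal turns were not separated (0.24 ± 0.11, adjusted p = 0.144). Between apex and base all 12 probes moved the same way, and 11 passed the test. With normexp the difference was 0.58 (adjusted p = 2.37e-05).

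Slc9a2 (NHE2), an epithelial exchanger, lies next to Slc9a4 among the members on chromosome 1, with its probes over chr1:40738951-40825643 and those of Slc9a4 over chr1:40637554-40687576. Its apical arrays read 226, 248, 228 and 221, its middle arrays 142, 176, 187 and 199 and its basal arrays 179, 198, 174 and 198. As with Slc9a4, the apical arrays stood above both other turns and the other two turns overlapped. The difference was 0.30 ± 0.10 against the base (adjusted p = 0.0267) and 0.40 ± 0.10 against the middle turn (adjusted p = 0.0237). It was no longer called against the base with quantile (0.19), median (0.19) or spike-in (-0.18) scaling. Against the middle turn it was 0.18 with spike-in scaling and did not pass (adjusted p = 0.253). The probes of Slc9a2 and Slc9a4 shared a run of up to 29 bases, the longest among the members.

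Slc9a3 (NHE3), the exchanger of the brush border in kidney and intestine, read 39.0, 35.4, 35.0 and 37.0 on the apical arrays, 30.5, 28.3, 28.0 and 27.6 on the middle arrays and 16.3, 12.5, 17.1 and 15.4 on the basal arrays. The turns did not overlap, and the difference between apex and base was 2.4-fold (log2 1.26 ± 0.09, adjusted p = 2.79e-06). The signal was dim, with 5, 4 and 3 of its 15 probes well above background in the apical, middle and basal turns. With the detected probes alone the difference was 0.98, with 16 added to each signal 0.66, and with normexp 0.27 (adjusted p = 0.0064). The step from middle to apex (0.36 ± 0.09, adjusted p = 0.0283) was -0.0074 with normexp (adjusted p = 0.952). The apical turn was higher than the basal turn in all of these settings, and the size of the difference changed with the background correction.

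Slc9a5 (NHE5), a neuronal exchanger, was also dim, with 5 of 16 probes well above background in the apex. It was higher in the apex by 0.21 ± 0.07 (adjusted p = 0.0272), with arrays that overlapped, but was -0.28 with spike-in scaling (adjusted p = 0.0329). The call was lost with quantile (0.047, adjusted p = 0.541) and median scaling (0.095, adjusted p = 0.262), with normexp (0.027, adjusted p = 0.779), and with 16 added or detected probes alone.

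Of the 4 organelle exchangers, Slc9a7 and Slc9a9 were higher in the apex. Slc9a7 (NHE7), an exchanger of the trans-Golgi network, read 186, 176, 192 and 176 on the apical arrays, 191, 138, 142 and 128 on the middle arrays and 72.9, 59.1, 101 and 61.9 on the basal arrays. All basal arrays lay below those of both other turns, and middle replicate 1 lay within the apical range. The apical turn was 2.53-fold higher than the basal turn (log2 1.34 ± 0.17, adjusted p = 1.18e-04), and most of the difference lay between middle and base (1.04 ± 0.17, adjusted p = 0.002). All 17 probes, over chrX:19682881-19868548, were higher in the apex and passed the test, from 0.30 to 1.90. With normexp the difference was 0.74 (adjusted p = 1.03e-04).

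Slc9a9 (NHE9), an endosomal exchanger, read 367, 395, 354 and 309 on the apical arrays, 305, 319.5, 314 and 291 on the middle arrays and 229, 226, 235 and 223 on the basal arrays. The basal arrays were lowest and lay close together, and the apical and middle arrays overlapped. The apex exceeded the base 1.56-fold (log2 0.64 ± 0.07, adjusted p = 5.17e-05), and 14 of 15 probes passed the test in that direction. With spike-in scaling the difference was 0.15 and did not pass (adjusted p = 0.173). The Golgi exchanger Slc9a8 (NHE8) did not pass (0.10 ± 0.04, adjusted p = 0.0905). The sperm exchanger Slc9a10 had 2 of 24 probes well above background in the apex and did not pass (-0.09 ± 0.11, adjusted p = 0.584).

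**Figure D4:**
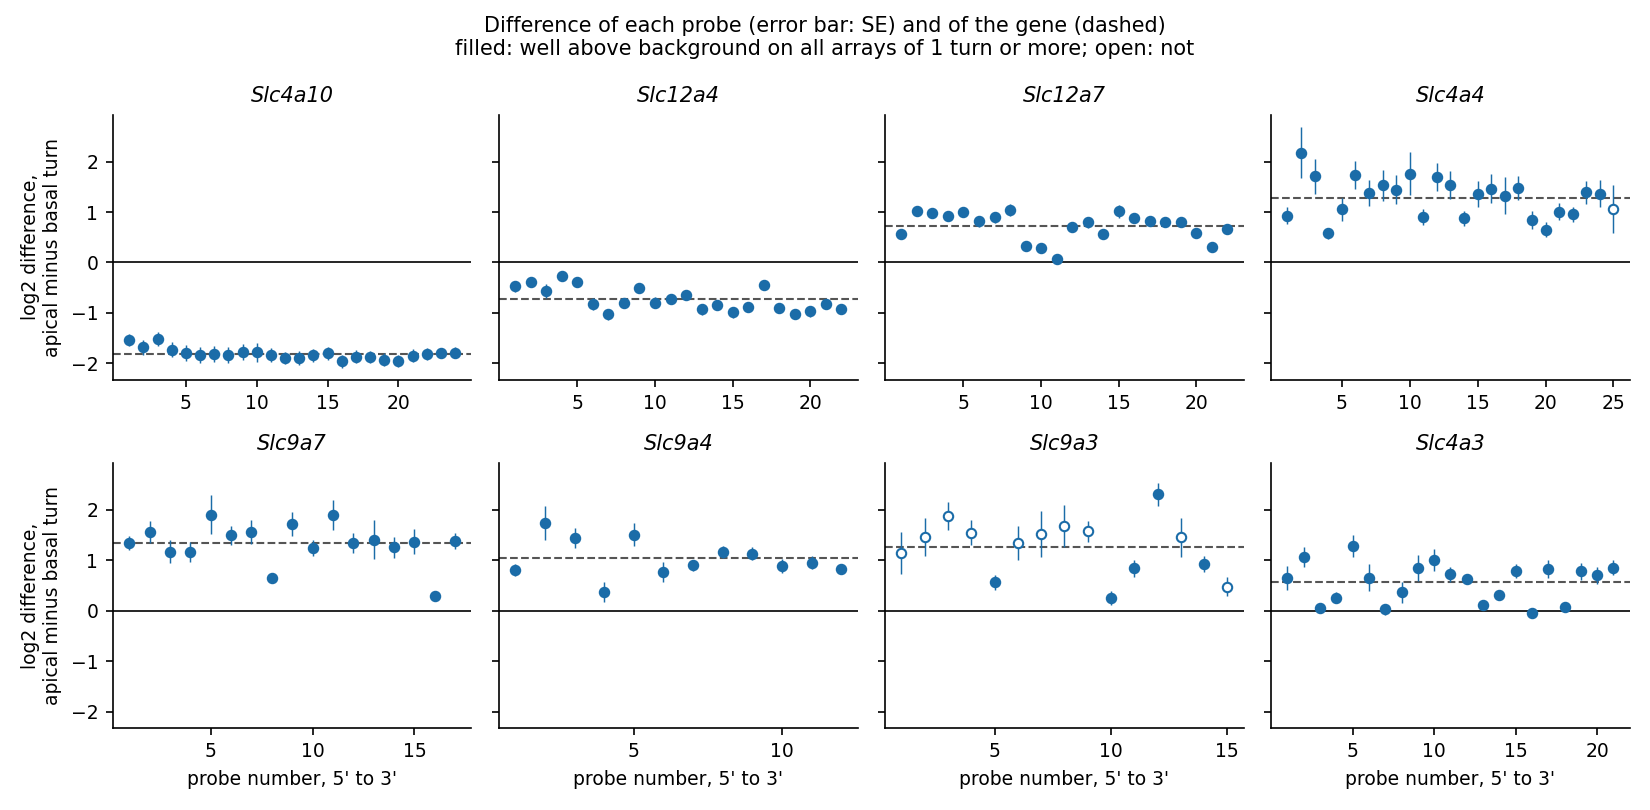
Each panel gives the log2 difference between the apical and basal turns (vertical axis) of every probe of 1 member in order from 5′ to 3′ (horizontal axis), with its SE, and the dashed line is the gene's own difference. The 24 probes of Slc4a10 lie close together, those of Slc4a3 scatter from -0.04 to 1.28, and 10 of the 15 probes of Slc9a3 are open points, not detected in any turn.

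The potassium-chloride cotransporters differed in their direction along the spiral. Slc12a4 (KCC1), a widely expressed cotransporter of cell volume, read 472, 511, 495 and 503 on the apical arrays, 489, 527, 546 and 574 on the middle arrays and 799, 807, 749.9 and 944 on the basal arrays. The basal arrays stood above both other turns, which overlapped. The basal turn was 1.66-fold higher than the apical turn (log2 -0.73 ± 0.07, adjusted p = 3.24e-05) and 1.54-fold higher than the middle turn (adjusted p = 3.44e-04). All 22 probes over chr8:108467493-108489884 were lower in the apex and passed the test, from -1.02 to -0.26.

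Slc12a7 (KCC4), whose loss causes deafness in mice and which is known from the supporting cells of outer hair cells, went the other way. It read 1039, 1009, 989.7 and 899 on the apical arrays, 899, 753, 867 and 885 on the middle arrays and 573, 555, 673 and 590.3 on the basal arrays. The turns did not overlap, with the lowest apical array at 899.3 and the highest middle array at 898.6. From base to apex the signal was 1.65-fold higher (log2 0.72 ± 0.08, adjusted p = 5.24e-05). The step from base to middle passed the test (0.51 ± 0.08, adjusted p = 0.00165), and that from middle to apex did not (0.21 ± 0.08, adjusted p = 0.0989). All 22 probes were higher in the apex, and 21 passed the test. With spike-in scaling the difference between apex and base was 0.23 (adjusted p = 0.0489), and the step from base to middle, 0.24, did not pass (adjusted p = 0.0781).

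Ratios within an array do not change when the whole array is multiplied by a factor, as in the 75th percentile, median and spike-in scalings. The ratio of Slc12a7 to Slc12a4 was 1.79 to 2.20 on the apical arrays, 1.43 to 1.84 on the middle arrays and 0.625 to 0.897 on the basal arrays, a 2.74-fold change from base to apex. The ratio of Slc4a4 to Slc4a10 was 0.111 to 0.157, 0.0480 to 0.0941 and 0.0102 to 0.0284, an 8.55-fold change. In both, the basal arrays lay below all others, and the ratios show unequal change of the 2 genes, not which of them changed. These pairs were set against each other after their values were known, and no test is given.

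**Figure D5:**
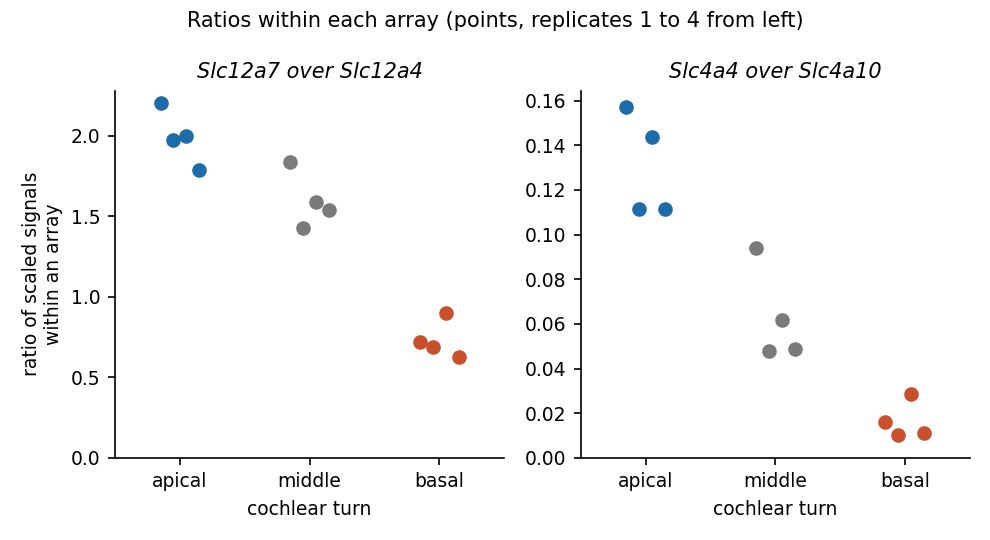
Each panel plots the ratio of 2 members' scaled signals within each array (vertical axis, from 0) against the cochlear turn. All 4 basal arrays lie below the apical and middle arrays in both panels, and basal replicate 3 is the highest basal point in each.

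Slc12a5 (KCC2), the cotransporter that keeps neuronal chloride low, had 13 to 15 of its 23 probes well above background in a turn and did not pass the test (-0.05 ± 0.06, adjusted p = 0.619). The other 3 scalings called it lower in the apex, with -0.23 for quantile (adjusted p = 0.00313), -0.16 for median (adjusted p = 0.0428) and -0.53 for spike-in scaling (adjusted p = 4.80e-04). The kidney cotransporters Slc12a1 (NKCC2) and Slc12a3 (NCC) were dim, with 7 of 28 and 10 of 25 probes well above background in the apex. Slc12a1 was lower in the apex, with a difference of -0.22 ± 0.07 (adjusted p = 0.028), and Slc12a3 did not pass (-0.05 ± 0.08, adjusted p = 0.689) but was called lower with quantile normalization (-0.18, adjusted p = 0.0231). With normexp the difference of Slc12a1 was -0.10 and did not pass (adjusted p = 0.202). The less studied Slc12a8 and Slc12a9 were lower in the apex, with differences of -0.20 ± 0.07 and -0.18 ± 0.06 (adjusted p = 0.0378 and 0.0465), and both calls were lost without apical replicate 1, 2 or 3 or basal replicate 2, 3 or 4, that of Slc12a9 also without middle replicate 1, 2 or 3. With normexp Slc12a8 was -0.058 and did not pass (adjusted p = 0.512), and both calls were lost with the median of probe values.

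Among the Slc26a genes, the sulfate transporter of cartilage, Slc26a2, had 2 probes and was lower in the apex, with a difference of -0.30 ± 0.11 (adjusted p = 0.0483). Its apical arrays read 98.4, 113, 117 and 128 and its basal arrays 134, 129, 129 and 169. Without basal replicate 4, the highest of them, the difference was -0.21 and did not pass the test (adjusted p = 0.128). In the base, 4 of 8 chondrocyte markers were higher (21.6% of all genes) and 1 was lower (17.6%). Their summed list ran from 1952 to 2064 in the apex and from 3230 to 3643 in the base. The call was also lost without apical replicate 1, 2 or 3, middle replicate 1, 2 or 3 or basal replicate 1 or 2. The part of cartilage in the value of Slc26a2 was not tested. The liver and kidney sulfate carrier Slc26a1, also with 2 probes, did not pass (-0.02 ± 0.09, adjusted p = 0.912).

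Slc26a7, an anion exchanger and chloride channel of acid-secreting epithelia, was lowest in the middle turn. It read 417, 377, 471 and 456 on the apical arrays, 300.2, 339, 326 and 292 on the middle arrays and 445, 401, 374 and 495 on the basal arrays. The middle arrays lay below all others, and the apical and basal arrays overlapped. The apex was 0.45 ± 0.10 above the middle turn (adjusted p = 0.0163), the middle turn -0.44 ± 0.10 relative to the base (adjusted p = 0.0102), and the ends did not differ past the test (0.01 ± 0.10, adjusted p = 0.961). All 16 probes were detected in every turn, and all 16 were lowest in the middle turn. With spike-in scaling the step from middle to apex was 0.23 and did not pass (adjusted p = 0.202).

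The other chloride-anion exchangers, Slc26a3, Slc26a6 and Slc26a9, and the sulfate-related Slc26a11 did not pass between apex and base, with log2 differences of 0.00 ± 0.12, -0.10 ± 0.10, -0.02 ± 0.08 and -0.15 ± 0.05. Of these, Slc26a11 came nearest (adjusted p = 0.0519), with arrays that did not overlap. It was called lower in the apex in the other 3 scalings, with -0.27 for quantile (adjusted p = 0.00249), -0.26 for median (adjusted p = 0.00328) and -0.63 for spike-in scaling (adjusted p = 2.04e-04). Slc26a6 was called lower with quantile normalization (-0.31, adjusted p = 0.0323). Slc26a3 had 3 of 18 probes well above background in the apex.

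Between the apical and middle turns, 7 members differed (12% of all genes), 4 higher (4.42%) and 3 lower (7.59%) in the apex, and the arrays of 11 members did not overlap (20.8%). At 1.5-fold or more, 1 member (Slc9a4) was higher (1.03%) and 1 (Slc4a10) lower (0.754%). The called members were Slc9a4, Slc26a7, Slc9a2 and Slc9a3, higher in the apex, and Slc4a10, Slc4a11 and Slc12a1, lower. The splits of higher against lower were 3 and 4 with quantile normalization, 4 and 6 with scaling to the median and 1 and 14 with spike-in scaling, where Slc26a7, Slc9a2 and Slc9a3 were not called. The count was 4 without apical replicate 1 or 2 or middle replicate 2 or 4.

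Between the middle and basal turns, 14 members differed (20.9% of all genes), 8 higher (11.7%) and 6 lower (9.21%) in the middle turn, and 16 did not overlap (24.1%). At 1.5-fold or more, 3 were higher (4.99%) and 2 lower (1.81%). Those higher in the middle turn were Slc4a4, Slc9a7, Slc9a3, Slc12a7, Slc4a3, Slc9a9, Slc9a5 and Slc4a7, and among those lower were Slc4a10, Slc12a4, Slc4a11, Slc26a7 and Slc4a2. The splits were 6 and 8 with quantile normalization, 7 and 7 with scaling to the median and 3 and 12 with spike-in scaling, where Slc12a7, Slc4a3, Slc9a9, Slc9a5 and Slc4a7 were not called. The mean of the middle turn lay between the ends for 21 of the 34 members and for 14 of the 19 that differed between apex and base. No share over all genes is given for these counts. Choosing genes by a difference between the ends itself favours a middle value between them. At the study's threshold, a test over the 3 turns with a 2-fold difference, 5 members passed (4.69% of all genes). These were Slc4a10, Slc4a4, Slc9a3, Slc9a4 and Slc9a7.

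For the counts that follow, 17.6% of all genes were higher and 21.6% lower in the apex at the same threshold. Of 7 genes of the WNK kinase pathway, which switches cation-chloride cotransporters on and off, 1 was higher and 1 lower in the apex, none by 1.5-fold. Of 7 proteins that bind exchangers, 0 were higher and 3 lower, among them Slc9a3r1 (NHERF1), a scaffold for NHE3, at -0.59 ± 0.11 (SE, adjusted p = 0.0012). Of 10 chloride channels and their subunits, 1 was higher and 6 lower, and Bsnd (barttin), a chloride channel subunit of strial marginal cells, was lower, with a log2 difference of -0.64 ± 0.11 (adjusted p = 7.27e-04). Neither of 2 other sodium-proton exchangers (Nhedc1, Nhedc2) passed between apex and base. Nhedc1 was dim, with 2 of 12 probes well above background in each turn. Its mean signal was highest in the middle turn (28.7, against 20.4 in the apex and 22.0 in the base). The apical minus middle difference was -0.48 (adjusted p = 0.0269) and the middle minus basal difference 0.37 (adjusted p = 0.0465). The part of the background in this pattern was not tested. Of the 3 relatives left out by the rule, 1 was higher and 1 lower. Slc12a2, the sodium-potassium-chloride cotransporter NKCC1, was lower, with a log2 difference of -0.52 ± 0.06 (adjusted p = 8.90e-05), and Slc26a5, the motor protein prestin of outer hair cells, was 7.65-fold higher in the apex (log2 2.94 ± 0.19, adjusted p = 1.76e-06).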

How the data were processed

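Total RNA of the apical, middle and basal turns (4 samples each) had been labelled with 1 dye and hybridised to Agilent mouse exon arrays, and Feature Extraction 10.7.3.1 was used by the authors to give the deposited processed signal, an intensity per spot that is already background-subtracted. The deposited value table holds the same intensity values. Array slides and turns coincided. Control spots and outlier-flagged spots were left out, which removed 119 of 165984 probes, and 0 spots were saturated. Each array was scaled so that its 75th percentile (534.6 to 722.1 before scaling) equalled 641.3, log2 was taken, and the probes of a gene were averaged. Between 77.4% and 81.4% of the spots of an array were well above background. No depth applies to arrays, and the number of arrays limits the precision.

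Turns were compared with limma 3.58.1 (lmFit, eBayes) in R 4.3.3 over all 19505 genes and all 12 arrays, with Benjamini-Hochberg adjustment over all genes and a threshold of 0.05. The study's own threshold was a test over the 3 turns together with a 2-fold difference. Errors of log2 differences are SE. The scripts were tested on simulated data. Members are named except for a few genes that are counted but not reported here by name, and those that passed a comparison at 1.5-fold or more, or passed the study's threshold, are given with every array. Other genes are named from lists of partners at the same mark, with the same exception. Slc12a2, Nhedc1 and Nhedc2 are named though they fell short of that mark, and Pvalb and Ocm are named as markers. The members and the lists were chosen with earlier results of these data known. Alternatives were quantile, median and spike-in scaling, normexp background correction (offset 50) on the mean signal, the deposited table, other probe summaries and filters, 16 added before log2, analysis of variance, a trended fit, only the arrays of 2 turns, the sample number as a block, and leaving out each array. Names matching Slc4a5, Slc9a11, Slc26a8 and Slc26a10 were looked for and not found among the gene names used here. Probe positions and bases were taken from the array files (mm9), and no sequence of the genome was used here.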

Additional observations from a re-analysis of the deposited data

Results flagged for a closer look

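In 3 of the 102 groups of 4 arrays (34 members in 3 turns), 1 array stood further from the others than Dixon's 95% limit allows, and chance alone gives about 1 in 20 such groups. Slc4a10 had a scaled signal of 1239 in apical replicate 1, against 1504 to 1534 on the other apical arrays, and of 4101 in basal replicate 3, against 5372 to 5497 on the other basal arrays. Its difference between apex and base was -1.73 without the first of these arrays and -1.91 without the second. Slc26a2 had a scaled signal of 168.5 in basal replicate 4, against 129.3 to 134.4 on the other basal arrays, and without it the difference between apex and base was -0.21 and did not pass the test (limma, adjusted p = 0.128).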

How the results depend on the processing

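The 40 calls on single members between 2 turns gave 480 values under the alternatives, of which 425 stayed called in the same direction, 50 were no longer called and 5 reversed, and 480 values with 1 array left out, of which 414 stayed, 66 were lost and 0 reversed. The deposited value table, counted among the alternatives, holds the same intensities, so its part of the 425 could not have changed. With spike-in scaling 29 members differed for apex against base, 15 for apex against middle turn and 3 at the study's threshold (Slc12a4, Slc4a10, Slc4a11). In the same setting Slc4a7 was -0.17 and Slc9a2 -0.18 between apex and base, neither past the test, Slc9a5 was -0.28, and Slc4a7 was -0.11 between middle and base. With normexp, Slc9a3 was -0.0074 between apex and middle turn (adjusted p = 0.952), and 1 member, Slc4a10, passed the study's threshold. With 16 added before log2, 3 members (Slc4a10, Slc4a4, Slc9a7) passed it. With the median of probe values, 4 members differed between apex and middle turn. The median difference of the members between apex and base, -0.02, was -0.13 with quantile and with median scaling, -0.50 with spike-in scaling and -0.058 with normexp. Leaving out 1 array gave 14 to 19 members for the ends of the spiral, 4 to 9 between apex and middle turn, 13 to 14 between middle and base, 4 to 5 at the study's threshold (Slc9a4 was lost without apical replicate 2 or basal replicate 3) and a median of -0.060 (without basal replicate 2) to 0.00996 (without basal replicate 1).

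Besides the calls of Slc12a8, Slc12a9 and Slc26a2, those lost without single arrays for apex against base were Slc9a2 (apical 2, basal 1 or 3), Slc9a5 (apical 1, 3 or 4, basal 2 or 4) and Slc12a1 (apical 2, 3 or 4, basal 1 or 4). Between apex and middle turn they were Slc26a7 (middle 4), Slc9a2 (apical 1, 2 or 3, middle 2), Slc9a3 (apical 1, 2 or 4, middle 2 or 4) and Slc12a1 (any of 9 arrays), and between middle and base Slc4a7 (any of 10 arrays).

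Samples with the same number did not deviate together in every pair of turns. The correlation of their deviations from the turn means, over genes, was -0.04 to 0.23 (median 0.10), and 6 of 12 pairs exceeded 0.1, beside a median of -0.02 for different numbers. In 15 of 24 combinations of an array and another turn the best match had the array's own number, a hint from the data that is not in the labels, and the numbers were not treated as pairs. With the replicate block 19 members differed for apex against base, 12 for apex against middle turn and 15 between middle and base. The fit on the arrays of 2 turns gives no count at the study's threshold, and the analysis of variance gives only that count.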
